A study of Mus musculus with 18 samples.

Results

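Embryonic stem cells that lack the kinase GCN2 were deprived of arginine for 3 h, and their transcriptome was compared with that of the same cells kept in complete medium. The comparison rests on 6 of the 18 libraries of the study, 3 from starved and 3 from unstarved cells, chosen by their group labels alone. All 6 came from the mouse embryonic stem cell line E14 with the genotype Eif2ak4-/-, so both the starved and the control cells carry the GCN2 knock-out. The starved group, Gcn_Arg, was kept in SILAC medium (a medium sold without certain amino acids, so that they can be added back one by one) with glucose, GlutaMAX, 5% dialyzed serum, leukaemia inhibitory factor and lysine; arginine was the amino acid left out. The control group, Gcn_Unstarved, had that medium with every amino acid. Before this, cells were grown on 0.1% gelatin with 15% serum and 10 ng/ml leukaemia inhibitory factor. The same starvation of wild-type E14 cells (Wt, 3 starved and 3 unstarved libraries) and a 3 h leucine starvation of the GCN2-deficient cells (Gcn_Leu, 3 libraries) served to show where the response differed. Whether the knock-out is 1 clone, and whether the libraries of a group came from separate cultures, is not given in the sources used here. In all tests p-values therefore measure the spread between these libraries, which may be technical.

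GCN2, encoded by Eif2ak4, is activated by uncharged tRNA and phosphorylates the initiation factor eIF2α. Translation in general then falls, while that of a few mRNAs with upstream reading frames, above all the one for the transcription factor ATF4, rises. ATF4 and its partners switch on genes for amino acid synthesis and uptake, tRNA charging and stress control, a program known as the integrated stress response (ISR). Arginine is also read by a second system: the sensor CASTOR1 and the lysosomal transporter SLC38A9 report its level to the Rag GTPases and mTORC1, and low mTORC1 activity lets TFEB and TFE3 enter the nucleus and turn on lysosomal genes. Loss of GCN2 removes neither this second system nor the genes of the other eIF2α kinases.

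The libraries held 14.8 M to 28.3 M counts in genes. The first principal component of the 6 libraries (53.1% of the variance) separated starved from unstarved cells. The second (21.3%) set the library numbered 1 of each group, with scores of 24.2 and 29.5, apart from the other 4, with scores of -17.3 to -9.5. Results are therefore also given without the libraries numbered 1 wherever that changed a call or moved a count by more than 1.5 times. The 10 embryonic stem cell markers were all present, with summed levels of 8553 to 9030 CPM (counts scaled to the size of the library) in unstarved and 8300 to 8943 CPM in starved cells. Of 9 fibroblast markers, 6 stayed under 1 CPM in every library and Fap was at 0 in all 6. The summed level of these markers ran from 7.76 to 10.1 CPM without and from 7.31 to 11.1 CPM with starvation. Eif2ak4 (chr2:118388618-118475234, plus strand, GRCm38) was at 6.21, 4.91 and 4.60 CPM in unstarved libraries 1, 2 and 3 and at 6.33, 4.41 and 5.80 CPM in the starved ones, with a log2 fold change of 0.07 ± 0.18 (SE; adjusted p = 0.816). In unstarved wild-type cells, on a scale set over all 18 libraries, it was at 31.8 ± 1.91 CPM (SD, n = 3). Transcripts of the gene were thus still counted in the knock-out cells, and the part of the gene that was altered is not given in the sources used here.

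Of 16369 genes tested, 2339 (14.3%) were higher and 2244 (13.7%) were lower after arginine starvation at an adjusted p under 0.05 in edgeR's quasi-likelihood test, which makes 28% called. The median log2 fold change of all tested genes was -0.01. Changes of at least 2-fold were found for 538 of the genes that rose and 206 of those that fell. The starved and unstarved libraries did not overlap in CPM for 42% of all genes. With the replicate number as a block, 3643 genes were higher and 3959 lower (46.4% called). When counts were scaled by library size alone, without the trimmed mean of M values (TMM), the median of all genes moved to 0.11 and 71.2% of the calls were higher (3449 against 1397), in place of 51.0% with TMM. Directions below are relative to the TMM scaling. Counts of list members below are to be read beside the 13.7% lower and 14.3% higher of all genes. With the block these shares were 24.2% and 22.3%. In these bulk samples, fewer cells of a type and less RNA per cell cannot be told apart.

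Among called genes with a mean of at least 5 CPM and no overlap between the groups, the largest increase was that of Bhlhe41, which encodes a transcriptional repressor of the circadian clock family. It stood at 3.61, 3.18 and 3.92 CPM in unstarved libraries 1, 2 and 3 and at 30.6, 39.2 and 34.0 CPM in starved libraries 1, 2 and 3, a log2 fold change of 3.28 ± 0.14 (SE; adjusted p = 3.7e-08). All values below are in this order of libraries. Gadd45g, a growth arrest and DNA damage inducible gene, went from 3.48, 3.75 and 3.46 to 16.1, 26.1 and 27.1 CPM (2.69 ± 0.21, adjusted p = 2.92e-06). Every starved library lay several-fold above every unstarved one for both genes. The other 10 genes of the top 12 were Gata2 (a haematopoietic transcription factor), Aqp3 (a water and glycerol channel), Dll1 (a Notch ligand), Runx1t1, Ptgs2 (cyclooxygenase 2), Insm1, Ripply3, Efnb2 (an ephrin ligand), Trpm1 and Maff (a small MAF factor), with log2 fold changes of 1.85 (Maff) to 2.44 (Gata2). Aqp3 was the most abundant of them after starvation: it rose from 34.2, 32.8 and 42.8 to 188, 211 and 173 CPM. The 12 largest decreases were those of Zc3h12a (the ribonuclease Regnase-1), Dancr (a small nucleolar RNA host gene), Esam (an adhesion protein), Trib3 (a pseudokinase that restrains AKT and ATF4), Vav2 (an exchange factor for small GTPases), Mat2a (methionine adenosyltransferase), Rbm10 (a splicing regulator), Hr (a histone demethylase family corepressor), Slc6a9 (a glycine transporter), Snhg5, Ceacam1 and Fgf15 (a secreted FGF). They ran from -1.50 (Fgf15 and Ceacam1) to -1.99 (Zc3h12a, 21.6, 19.4 and 20.1 CPM falling to 5.44, 5.18 and 4.61 CPM, adjusted p = 4.3e-07). All 24 genes kept their direction and their call under every alternative setting run for this comparison.

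Most ISR genes fell. Of 23 tested ISR regulators and targets, 14 fell and 2 rose, with a median log2 fold change of -0.58. Atf4 itself (chr15:80255184-80257541), the main transcription factor of the response, was at 434, 407 and 384 CPM in unstarved cells and at 269, 281 and 273 CPM in starved cells, a fall of 0.58 ± 0.08 on the log2 scale (adjusted p = 0.000168). Trib3 (chr2:152337422-152344032, minus strand) went from 68.0, 59.2 and 55.7 to 15.4, 18.4 and 19.7 CPM (-1.77 ± 0.12, adjusted p = 4.83e-07). Chac1 (chr2:119351229-119354381), which degrades glutathione, went from 28.5, 22.9 and 18.7 to 7.52, 8.82 and 8.70 CPM (-1.49 ± 0.18, adjusted p = 5.51e-05). For each of these genes the lowest unstarved library was above the highest starved one. The hepatokine gene Inhbe, a low one, fell from 2.04, 1.91 and 1.75 to 0.255, 0.405 and 0.593 CPM (-2.24 ± 0.34, adjusted p = 0.000307). Ddit3, which encodes the pro-apoptotic factor CHOP, fell from 15.0, 16.7 and 15.5 to 6.93, 9.99 and 10.1 CPM (-0.81 ± 0.15, adjusted p = 0.00143). The stress cytokine gene Gdf15 fell from 17.9, 20.8 and 16.2 to 7.65, 8.25 and 7.58 CPM (-1.22 ± 0.13, adjusted p = 1.42e-05). Again every starved library lay below every unstarved one.

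Further members with lower levels were Vegfa (a vascular growth factor, log2 fold change -1.20), Gpt2 (mitochondrial alanine transaminase, -1.12), Stc2 (a secreted glycoprotein, -0.93), Sesn2 (a leucine-binding inhibitor of mTORC1, -0.65), Cebpb (a bZIP partner of ATF4 and CHOP, -0.62) and Atf5 (a further translationally controlled bZIP factor, -0.50). Gpt2 was even across the starved libraries, at 31.1, 31.5 and 31.4 CPM against 78.6, 66.0 and 60.5 CPM. Ddit4, the mTORC1 inhibitor REDD1, stood at 54.7, 77.0 and 66.5 CPM and then at 26.0, 46.0 and 41.0 CPM (-0.81 ± 0.22, adjusted p = 0.0214), and its call was lost without unstarved library 2. The members that rose were Cdkn1b (the cell cycle inhibitor p27, 0.79 ± 0.10) and Gadd45a. Gadd45a (0.55) was called with all libraries, but not when unstarved library 1, 2 or 3 or starved library 2 or 3 was left out. Atf3 (0.26 ± 0.17, adjusted p = 0.291), Nupr1 (0.09 ± 0.14, adjusted p = 0.691) and Vldlr (-0.21 ± 0.27, adjusted p = 0.616) were not called, and their starved and unstarved libraries overlapped.

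**Figure D1:**
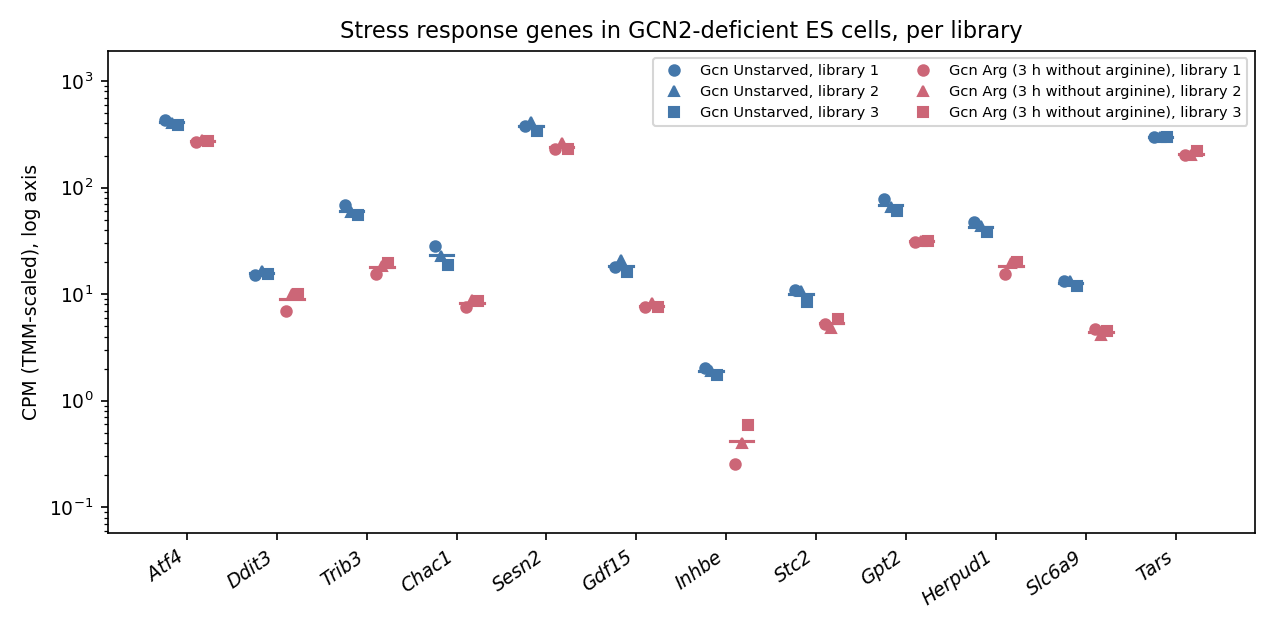
Levels of 12 genes in the 3 unstarved and 3 arginine-starved GCN2-deficient libraries, as TMM-scaled CPM on a log axis; each point is 1 library, its shape gives the library number and the bar is the group mean. For each gene all starved libraries lie below all unstarved ones, for Trib3 at 15.4 to 19.7 against 55.7 to 68.0 CPM. The genes were picked from those that fell, with Herpud1, Slc6a9 and Tars taken from other lists. ISR genes that overlapped or rose, such as Atf3, Nupr1, Vldlr and Cdkn1b, are not shown. Of all genes, 42% had no overlap.

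In wild-type cells most of these genes went the other way. There, 20 of the 23 rose and 1 fell, on a background of 40.9% of all tested genes called (20.9% higher and 20% lower), and their median was 0.88. Chac1 rose from 27.9 ± 10.1 to 163 ± 5.55 CPM (SD, n = 3 each), Trib3 from 65.4 ± 16.9 to 190 ± 15.1 CPM and Inhbe from 1.28 ± 0.400 to 10.3 ± 2.28 CPM. The test of the difference itself, the change in GCN2-deficient cells minus the change in wild-type cells, called 18 of the 23 lower, where 2.3% of all genes were called, 1.68% lower and 0.62% higher. The difference was -5.22 ± 0.43 for Inhbe (adjusted p = 1.18e-07), -4.03 ± 0.32 for Chac1 (adjusted p = 2.46e-06) and -3.32 ± 0.22 for Trib3 (adjusted p = 5.88e-08). Sesn2 differed as well (-0.66 ± 0.13, adjusted p = 0.00602), with wild-type means of 387 CPM without and 385 CPM with starvation. Atf5 fell in both genotypes (-0.27 ± 0.08 in wild-type cells, adjusted p = 0.012), and no difference between its changes was detected (-0.23 ± 0.13, adjusted p = 0.391). Cdkn1b rose in both (0.66 ± 0.06 in wild-type cells, adjusted p = 3.03e-07).

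**Figure D2:**
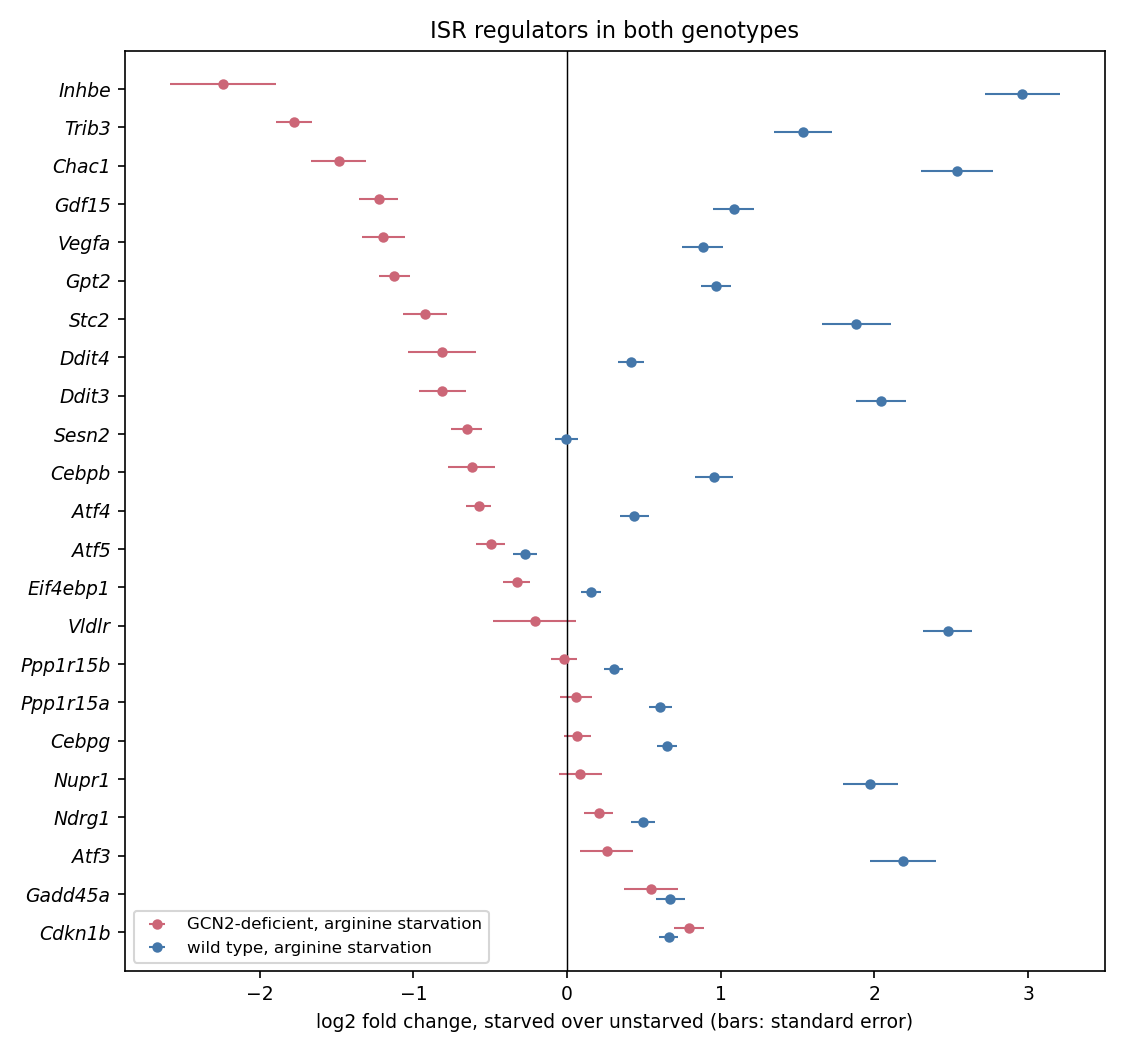
Log2 fold change of 23 ISR genes on arginine starvation in GCN2-deficient (red) and wild-type (blue) cells, with standard errors; positive values mean higher in starved cells. Inhbe lies at -2.24 and 2.96, Chac1 at -1.49 and 2.54, while Cdkn1b is at 0.79 and 0.66.

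ATF4 and C/EBP proteins are known to bind a composite element whose core can be written TTGCATCA. The 250 bases before the start site of 3 genes that fell without GCN2 and rose in the wild type are shown because they hold this core, in capitals; the sequences are from RefSeq (GRCm38.p6), 5′ to 3′ on the strand of the gene, and their start sites can differ from those used for counting.
Chac1, chr2:119350992-119351241, plus strand: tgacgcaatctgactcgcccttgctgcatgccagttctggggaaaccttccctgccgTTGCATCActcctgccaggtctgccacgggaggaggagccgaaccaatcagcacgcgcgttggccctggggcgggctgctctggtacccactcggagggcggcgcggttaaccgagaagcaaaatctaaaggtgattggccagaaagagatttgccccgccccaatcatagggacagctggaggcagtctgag
Inhbe, chr10:127351849-127352098, minus strand: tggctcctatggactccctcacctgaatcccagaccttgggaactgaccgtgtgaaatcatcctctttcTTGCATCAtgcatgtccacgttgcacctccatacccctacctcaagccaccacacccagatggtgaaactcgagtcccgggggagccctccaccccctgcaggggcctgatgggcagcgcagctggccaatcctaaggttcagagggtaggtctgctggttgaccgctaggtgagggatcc
Herpud1, chr8:94386179-94386428, plus strand: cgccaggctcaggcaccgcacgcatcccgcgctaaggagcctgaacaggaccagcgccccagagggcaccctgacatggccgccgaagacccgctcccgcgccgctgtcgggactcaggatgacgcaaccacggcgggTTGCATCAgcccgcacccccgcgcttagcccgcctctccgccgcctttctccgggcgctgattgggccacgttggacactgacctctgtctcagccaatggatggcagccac
The match began 193 bases before the start of Chac1, 181 before that of Inhbe and 112 before that of Herpud1. Windows from 250 bases before to 50 after a start site were searched for TTGCATCA and its reverse complement TGATGCAA. Of 32851 such windows, 0.895% held a match, and 1.03% of the 27025 genes with a window had at least 1 such window. Among the ISR genes, 20 could be found in the table and 5 of them (Atf3, Chac1, Inhbe, Nupr1 and Vldlr) held one. Of these 5, only Chac1 and Inhbe were called lower without GCN2, and Atf3, Nupr1 and Vldlr were not called. The windows of Trib3 and Ddit3, which both fell, held no match. The genes shown are thus a selection, and holding the core did not go along with a fall in this list. Inhbe and Herpud1 were looked at after their values were seen. A match is a description of these letters and shows neither binding nor a cause, and its absence here says nothing about ATF4.

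Herpud1, a ubiquitin-like protein of endoplasmic reticulum (ER) quality control, belongs to the ER list and showed the same opposite changes. It fell from 47.7, 43.4 and 38.0 to 15.5, 19.4 and 20 CPM (-1.23 ± 0.12, adjusted p = 6.77e-06), while it rose in wild-type cells (1.84 ± 0.14, adjusted p = 1.25e-06). The difference was -3.08 ± 0.18 (adjusted p = 1.34e-09). Of 26 ER chaperones and unfolded protein response genes, 11 fell and 2 rose, with a median of -0.23. The replicate block gave 18 lower, library-size scaling gave 7 lower and 4 higher with a median of -0.11, and without unstarved library 2 no gene was higher (1 without unstarved library 3 or starved library 1). Hspa5, the main ER chaperone BiP, fell from 812, 723 and 766 to 494, 354 and 443 CPM (-0.83 ± 0.12, adjusted p = 0.000167). Xbp1, a transcription factor of the unfolded protein response, fell by 0.84 on the log2 scale, Pdia4 (a disulfide isomerase) by 0.62, Manf (a secreted ER stress protein) by 0.52, the sensor gene Atf6 by 0.51 and Canx (calnexin) by 0.38. For Atf6, Pdia4 and Canx the change differed from that of wild-type cells, by -0.73 ± 0.12 (adjusted p = 0.00142), -0.56 ± 0.09 (adjusted p = 0.00142) and -0.52 ± 0.11 (adjusted p = 0.00939). For Hspa5 the difference of -0.53 ± 0.15 was not called (adjusted p = 0.0748).

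Among the other kinases and partners of eIF2α signalling, 12 genes tested, 1 fell and 1 rose (4 and 3 with the block, 2 lower without unstarved library 1 or the libraries numbered 1, and 2 higher with library-size scaling or without starved library 1 or 2). Of all genes, 13.7% fell and 14.3% rose, and 24.2% and 22.3% with the block. Eif2ak1, which encodes the haem-regulated kinase HRI, fell by 0.47 on the log2 scale, and Impact, whose product inhibits GCN2, rose by 0.56. Both moved the same way in wild-type cells (-0.30 and 0.70, both called). Of the 19 amino acid synthesis genes, 2 fell and 2 rose (5 and 7 with the block, 1 and 7 with library-size scaling, 1 and 3 without unstarved library 1, and 1 and 2 without unstarved library 3). Both shares were under those of all genes, 13.7% and 14.3%. Psat1, phosphoserine aminotransferase of serine synthesis, fell from 479, 500 and 475 to 332, 350 and 358 CPM (-0.48 ± 0.08, adjusted p = 0.000408). Aldh18a1, which makes the proline precursor from glutamate, rose from 78.9, 69.8 and 65.4 to 112, 93.1 and 86.0 CPM (0.44 ± 0.11, adjusted p = 0.00818). Cbs, of cysteine synthesis, rose by 0.42. Asns, asparagine synthetase and a textbook ATF4 target, was at 311, 284 and 258 CPM and at 361, 327 and 305 CPM (0.22 ± 0.10, adjusted p = 0.139). Its groups overlapped; with the replicate block it passed the test (adjusted p = 0.00119).

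The cytosolic tRNA synthetases, 20 tested, held 4 lower and no higher genes, against 13.7% lower and 14.3% higher among all genes. Tars, threonyl-tRNA synthetase, was the one that fell under every setting, from 296, 302 and 296 to 203, 202 and 220 CPM (-0.52 ± 0.08, adjusted p = 0.00025). The calls of Cars, Eprs and Gars (-0.34, -0.30 and -0.27) were lost without the libraries numbered 1, where Iars (-0.30 ± 0.12, adjusted p = 0.0797 with all libraries) passed the test beside Tars and the count was 2. A single lower gene was left without unstarved library 1, without unstarved library 2, without starved library 3 or with library-size scaling. With the replicate block 12 were lower, where 24.2% of all genes were. In a fit of all 18 libraries 7 were lower, where 2958 of 16924 genes were. Against wild-type cells, 10 of the 20 were lower by the test of the difference, where 1.68% of all genes were. That count fell to 6 without wild-type starved library 3.

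Of 24 amino acid transporters, 7 rose and 6 fell. Those with the largest decreases were Slc6a9, a glycine transporter of the plasma membrane (13.2, 13.3 and 12 falling to 4.72, 4.13 and 4.48 CPM, -1.53 ± 0.13, adjusted p = 2.92e-06), and Slc38a4, which carries neutral amino acids (260, 298 and 262 falling to 151, 124 and 141 CPM, -0.98 ± 0.09, adjusted p = 8.41e-06). Slc6a9 rose in wild-type cells (1.45 ± 0.12), and the difference was -2.99 ± 0.19 (adjusted p = 1.34e-09). Slc7a1, a cationic amino acid carrier that imports arginine, was at 139, 127 and 106 CPM and at 118, 91.7 and 95.1 CPM (-0.29 ± 0.13, adjusted p = 0.121), whereas it rose in wild-type cells (0.90 ± 0.08, adjusted p = 3.19e-07). That difference was called (-1.19 ± 0.17, adjusted p = 0.00039). With the block, Slc7a1 was lower (adjusted p = 0.00382), and likewise without starved library 1 (adjusted p = 0.032) or without the libraries numbered 1 (adjusted p = 0.0458). Slc7a11, the cystine antiporter, was under 1 CPM in all 6 libraries and was not called (-0.59 ± 0.41, adjusted p = 0.315).

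The transporters that rose included several of the lysosomal membrane. Pqlc2, which exports cationic amino acids from lysosomes, rose from 11.3, 11.2 and 11.5 to 18.1, 19.5 and 18.8 CPM (0.73 ± 0.10, adjusted p = 0.000113). Slc38a7, the lysosomal exporter of glutamine and asparagine, rose by 0.55 and Slc36a1, a proton-coupled lysosomal carrier, by 0.63. Slc43a1 and Slc43a2, carriers of large neutral amino acids, rose by 0.95 and 0.97. All 5 were also called higher in wild-type cells (0.49 to 1.01). With library-size scaling, or without unstarved library 1, unstarved library 2 or starved library 3, the number of lower transporters was 3.

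Of 25 genes of arginine and polyamine metabolism, 5 fell and none rose, against 13.7% lower and 14.3% higher among all genes. With the block 11 fell and 2 rose, where 24.2% and 22.3% of all genes did, and 3 fell and 3 rose with library-size scaling. One gene was higher without unstarved library 1. Ass1, which makes argininosuccinate, was at 146, 133 and 124 CPM and at 131, 122 and 105 CPM (-0.17 ± 0.11, adjusted p = 0.253, and 0.00974 with the block). Asl, which releases arginine from it, had a log2 fold change of -0.16 ± 0.12 (adjusted p = 0.324) and the arginase gene Arg2 one of -0.30 ± 0.20 (adjusted p = 0.282). The libraries of the groups overlapped for all 3 genes. Among those that fell, polyamine synthesis and its control held Amd1, the decarboxylase of S-adenosylmethionine (57.0, 62.9 and 62.2 falling to 36.6, 35.7 and 45.1 CPM, -0.64 ± 0.12, adjusted p = 0.00177), Srm, spermidine synthase (-0.47 ± 0.10), and Oaz2, an ornithine decarboxylase antizyme (-0.42 ± 0.09).

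In the sensing arm, 8 of 31 genes rose and 4 fell (14 and 8 with the block, 13 and 3 with library-size scaling, and 2 lower without unstarved library 2). Castor1, the cytosolic arginine sensor, fell from 36.5, 39.2 and 40.8 to 25.4, 28.1 and 28.8 CPM (-0.50 ± 0.09, adjusted p = 0.00118). Its change in wild-type cells was -0.50 ± 0.07 (adjusted p = 1.31e-05), and no difference between the genotypes was detected (-0.01 ± 0.11, adjusted p = 0.985). The Rag GTPase gene Rragc rose from 139, 136 and 129 to 211, 214 and 207 CPM (0.65 ± 0.08, adjusted p = 4.47e-05). Flcn and its partner Fnip1, which act on RagC, rose by 0.68 and 0.83, and Flcn went from 111, 108 and 103 to 168, 180 and 168 CPM. None of the starved values reached down into the unstarved range. Further increases were those of Nprl3 (a GATOR1 subunit, 0.71), Lamtor1 (the Ragulator anchor, 0.53), Tsc1 (0.47) and Rragb (0.36).

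Lysosomal genes rose as a group: of 41 tested genes for lysosomal enzymes, membrane proteins and MiT/TFE factors, 23 rose and 2 fell, with a median of 0.31. Hexa, a subunit of beta-hexosaminidase, rose from 65.9, 64.3 and 61.0 to 207, 191 and 154 CPM (1.53 ± 0.12, adjusted p = 2.13e-06). Mcoln1, the lysosomal calcium channel TRPML1, rose from 21.4, 18.4 and 20.4 to 56.1, 55.7 and 49.4 CPM (1.42 ± 0.09, adjusted p = 4.83e-07). Naglu, which degrades heparan sulfate, rose from 0.999, 1.01 and 0.761 to 4.63, 5.46 and 4.87 CPM (2.43 ± 0.21, adjusted p = 3.14e-06). The groups were far apart in each case. Sgsh, of the same pathway, rose by 1.84, Ctsa (cathepsin A) by 1.19, Neu1 (sialidase) by 1.06, Gla (alpha-galactosidase) by 1.03 and Ctsl (cathepsin L) by 0.80. Mitf, Tfeb and Tfe3, the transcription factors of this program, had log2 fold changes of 0.18 ± 0.11, 0.18 ± 0.16 and 0.15 ± 0.09, none of them called, although Tfe3 was with the block (adjusted p = 0.0314). The genes that fell were Manba and Man2b1, lysosomal mannosidases. At most 1 gene of the list was lower when any library was left out, and none with library-size scaling. In wild-type cells 30 of the 41 rose and 2 fell, with a median of 0.48, where 20.9% and 20% of all genes did. Against wild-type cells 2 genes of the list, Cln3 and Atp6v1a, were lower by the test of the difference. With library-size scaling 1 gene was lower, and with the block 4 were lower and 2 higher. Cln3, a lysosomal membrane protein, rose in both genotypes (0.52 ± 0.08 here and 1.01 ± 0.07 in the wild type). Its difference was -0.50 ± 0.11 (adjusted p = 0.0135, and 0.0527 without unstarved library 2). Atp6v1a, a proton pump subunit, had a log2 fold change of 0.04 ± 0.08 here (adjusted p = 0.746) and 0.48 ± 0.06 in the wild type. Its difference was -0.44 ± 0.10 (adjusted p = 0.0201). The adjusted p was 0.0537 to 0.0749 without wild-type unstarved library 3, wild-type starved library 2 or 3, unstarved library 1 or 2 or starved library 2.

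**Figure D3:**
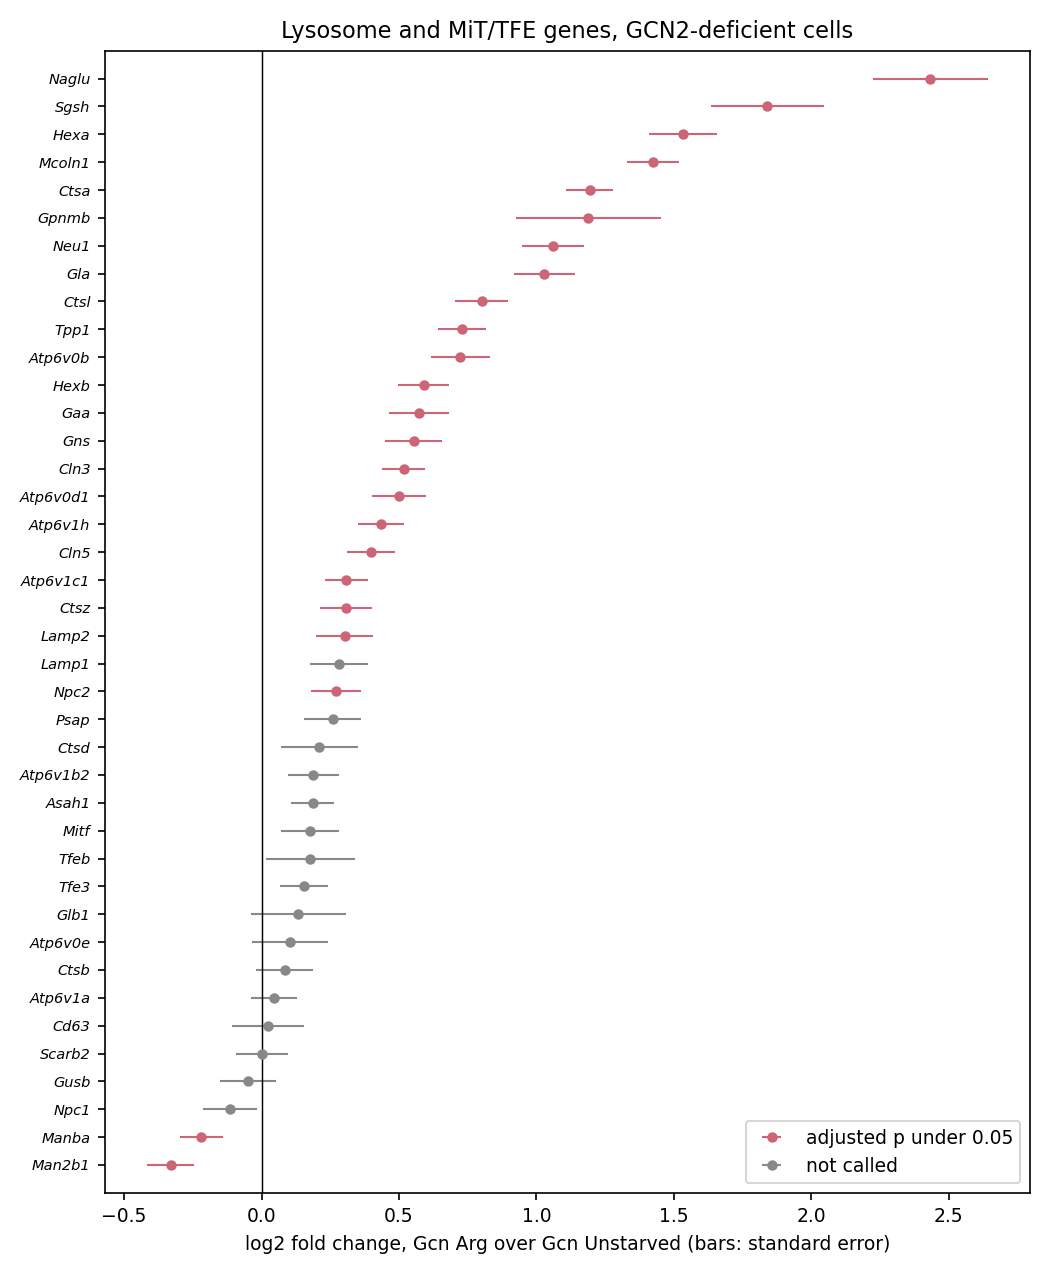
Log2 fold change (starved over unstarved, with standard error) of 40 of the 41 lysosomal and MiT/TFE genes in GCN2-deficient cells; red points have an adjusted p under 0.05. Naglu is at 2.43, Hexa at 1.53 and Mcoln1 at 1.42, and the 2 called genes below 0 are Manba and Man2b1.

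TFEB and TFE3 bind E-boxes with the letters CACGTG, within the CLEAR element. The upstream bases of the lysosomal genes Naglu and Mcoln1 are shown because both hold the hexamer, in capitals, and both were among the largest increases. They too are from RefSeq (GRCm38.p6) and were chosen after their values were seen.
Naglu, chr11:101069844-101070093, plus strand: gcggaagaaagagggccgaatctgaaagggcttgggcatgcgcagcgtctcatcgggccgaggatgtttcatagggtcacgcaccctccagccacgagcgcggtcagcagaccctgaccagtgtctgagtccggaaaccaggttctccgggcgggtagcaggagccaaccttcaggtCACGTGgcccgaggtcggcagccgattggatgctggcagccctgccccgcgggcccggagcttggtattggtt
Mcoln1, chr8:3500269-3500518, plus strand: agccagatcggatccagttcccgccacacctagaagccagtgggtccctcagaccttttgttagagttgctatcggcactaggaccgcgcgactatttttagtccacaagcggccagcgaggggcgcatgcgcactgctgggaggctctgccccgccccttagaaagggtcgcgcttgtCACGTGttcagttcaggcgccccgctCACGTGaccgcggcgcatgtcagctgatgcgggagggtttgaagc
The match lay 73 bases before the start of Naglu, and the first of 2 matches 71 bases before that of Mcoln1. The hexamer, which is its own reverse complement, was found in 7.15% of the 32851 windows, and 8.09% of the 27025 genes in the table had at least 1 window with it. Of 31 lysosomal genes found in the table, 15 (48.4%) held it, and 2 of the 20 ISR genes did. The 15 were counted whether or not they rose, and Atp6v1a, which was not called here, was among them. The windows of Hexa and Neu1, which rose, did not hold the hexamer. The list was chosen by function, so its share is no result of the starvation, and a cause was not tested. As above, these matches describe letters and not binding.

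Of 32 autophagy genes, 6 were higher and 4 lower, close to the 14.3% higher and 13.7% lower among all genes. Atg14 and Uvrag, subunits of the PI3-kinase complexes that act in autophagosome formation and maturation, rose by 0.60 and 0.61, and Gabarap, a protein of the autophagosome membrane, rose from 110, 121 and 118 to 166, 201 and 170 CPM (0.62 ± 0.10, adjusted p = 0.000335). The receptor genes Tax1bp1 and Bnip3l fell by 0.56 and 0.40. Without unstarved library 3, starved library 1 or starved library 2, the higher count was 3. Without unstarved library 1 or starved library 2 or with library-size scaling, the lower count was 2. With the block 10 rose and 7 fell, where 22.3% and 24.2% of all genes did. Among 22 FOXO factors and targets, 9 rose and 3 fell (5 lower with the block, and 1 with library-size scaling or without unstarved library 2 or starved library 2). Klhl24, a substrate adaptor of a ubiquitin ligase, went from 89.7, 74.5 and 75.4 to 187, 146 and 178 CPM (1.09 ± 0.12, adjusted p = 2.09e-05). Bcl6 (a repressor), Pik3ip1 (an inhibitor of PI3-kinase), Fbxo32 (the ubiquitin ligase atrogin-1), Irs2 (an insulin receptor substrate), Ccng2 (cyclin G2) and Foxo3 rose by 1.22, 1.18, 1.06, 0.69, 0.65 and 0.48. Bcl2l11, the pro-apoptotic FOXO target BIM, fell from 31.2, 32.7 and 32.5 to 19.7, 20.2 and 20.2 CPM (-0.68 ± 0.10, adjusted p = 0.000178).

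Txnip, an arrestin that limits glucose uptake and is a target of MondoA and its partner MLX, rose from 173, 148 and 135 to 535, 487 and 465 CPM (1.70 ± 0.11, adjusted p = 4.65e-07). Its relatives Arrdc3 and Arrdc4 rose by 1.43 and 0.64, while Mlx fell by 0.40. These made up 3 higher and 1 lower of 8 genes tested. All 3 Gadd45 genes were called higher, Gadd45g and Gadd45b (0.72 ± 0.15, adjusted p = 0.00271) under every setting. The change of Txnip in wild-type cells was 1.67 ± 0.07, and no difference was detected (0.02 ± 0.14, adjusted p = 0.964).

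Genes of sterol synthesis fell: 14 of 25, with 1 higher and a median of -0.40 (2 higher with the block, with library-size scaling and without starved library 1 or the libraries numbered 1). Hmgcs1, an early enzyme of the mevalonate pathway, fell from 305, 290 and 269 to 169, 147 and 158 CPM (-0.87 ± 0.09, adjusted p = 1.77e-05). Srebf2, the transcription factor of the pathway, fell by 0.57. The gene that rose was Insig1, which holds SREBP in the ER (89.9, 82.8 and 89.6 rising to 121, 107 and 114 CPM, 0.38 ± 0.09, adjusted p = 0.00549). Of 15 fatty acid genes, 5 fell and none rose (10 with the block, 8 with no filter on low counts or without starved library 1, and 9 in a fit of all 18 libraries). They included the desaturase genes Scd1 (-0.91) and Scd2 (-0.54) and the elongase gene Elovl5 (-0.51).

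Cytosolic heat shock genes fell in 9 of 16 cases and rose in 1, with a median of -0.36 (5 lower where at least 5 CPM was required, none higher without unstarved library 2, and 2 higher with the block or library-size scaling). Dnajb1, an HSP40 co-chaperone, fell from 177, 221 and 204 to 98.2, 137 and 113 CPM (-0.79 ± 0.13, adjusted p = 0.00074). Hspa8, the constitutive HSC70, fell by 0.50 and Hsph1 by 0.37. Hspa1b fell by 1.85, and reads of it and of its near copy Hspa1a may have been split by the counting. NRF2 targets of the antioxidant response fell in 11 of 19 cases with 1 higher, and their median was -0.42. Srxn1, sulfiredoxin, fell from 46.7, 44.0 and 37.4 to 19.3, 18.2 and 15.5 CPM (-1.27 ± 0.12, adjusted p = 6.08e-06). Cbr3 fell by 1.40, Hmox1 (haem oxygenase 1) by 0.68, Gclm (of glutathione synthesis) by 0.67 and Nqo1 by 0.50, while Nfe2l2, which encodes NRF2, rose by 0.42. Of 22 p53 targets, 12 fell and 2 rose. Plk2, Zmat3 and Mdm2 fell by 0.86, 0.74 and 0.50. Without unstarved library 2, 6 of the p53 targets were lower. The higher count was 1 without unstarved library 1, 2 or 3 or starved library 1 or 3, and 0 without the libraries numbered 1.

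Among genes of methionine metabolism, Mat2a, which makes S-adenosylmethionine, fell from 416, 415 and 435 to 135, 129 and 149 CPM (-1.61 ± 0.09, adjusted p = 2.76e-07). Mettl16, the methyltransferase that acts on the Mat2a transcript, fell by 0.50. In all, 4 of 12 genes fell and 1 rose (3 higher with the block or library-size scaling, and 2 without starved library 2). Slc25a44, the mitochondrial carrier of branched-chain amino acids, rose from 61.7, 55.6 and 55.2 to 176, 206 and 184 CPM (1.72 ± 0.09, adjusted p = 1.74e-07). With it rose Mccc1 (0.41) and Bckdha (0.35), 6 of 16 genes in all with none lower (1 with the block). Of 22 glycolysis and hypoxia genes, 7 fell and 2 rose (11 and 4 with the block): Slc16a3 (-0.67), Slc16a1 (-0.59), the glucose carrier gene Slc2a1 (-0.47) and Hk2 (-0.47) fell, and Pfkfb3 (0.76) and Pdk1 (0.39) rose.

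**Figure D4:**
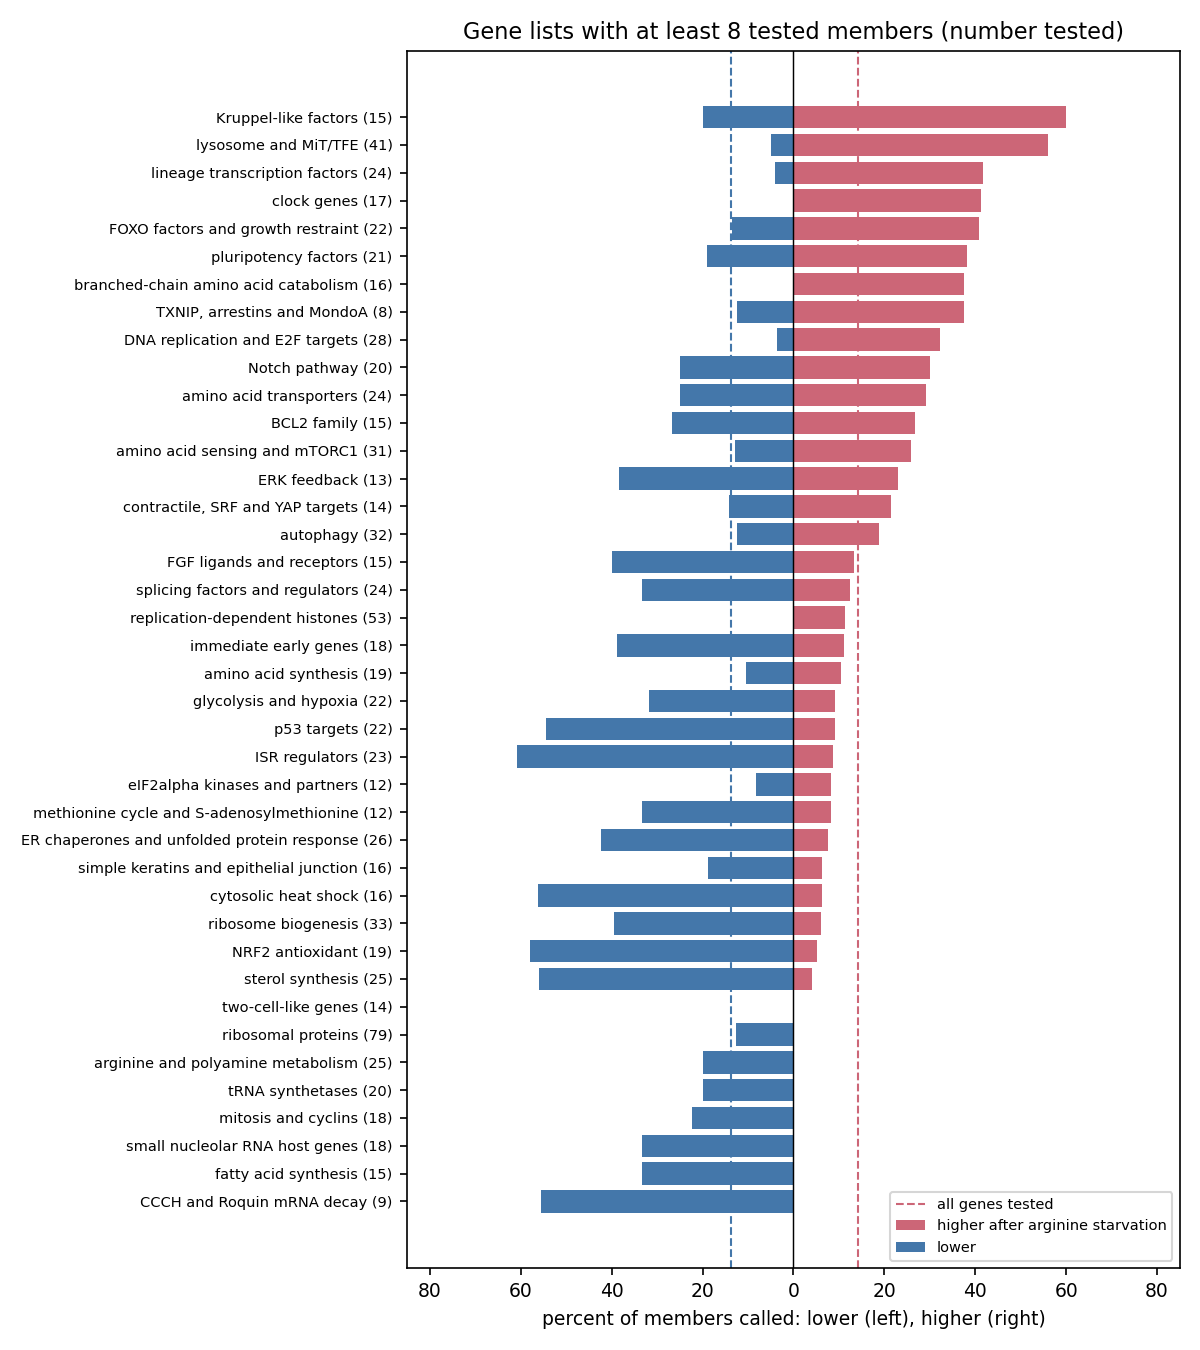
Percent of the tested members of each gene list called lower (blue, to the left) or higher (red, to the right) after arginine starvation of GCN2-deficient cells. Only lists with at least 8 tested members are shown, which leaves out the Gadd45 family, fibroblast markers and mitochondrial transcripts. The number tested is in brackets and dashed lines give the share of all genes, 13.7% lower and 14.3% higher. The ISR, sterol, NRF2 and heat shock lists lean left, and the lysosome list, with 23 of 41 higher, leans right.

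Among genes of growth and RNA processing, Myc fell from 77.4, 78.5 and 75.4 to 39.1, 37.1 and 39.5 CPM (-1.0 ± 0.08, adjusted p = 2.32e-06). Ribosome biogenesis genes fell in 13 of 33 cases and rose in 2 (20 and 4 with the block, 7 and 3 with library-size scaling, where the median moved from -0.18 to -0.06, and 1 higher without unstarved library 2). Among them were Rrp9 (-0.68), Bop1 (-0.60), Nolc1 (-0.58) and the RNA polymerase I subunit genes Polr1e (-0.71) and Polr1b (-0.45), whereas Polr1a, the catalytic subunit, rose by 0.52. Of 79 ribosomal protein genes, 10 were lower and none higher, with a median of -0.22. The lower share was close to the 13.7% of all genes, of which 14.3% were higher. This count depended on the setting. With the block 55 were lower and none higher, where 24.2% and 22.3% of all genes were. Without the libraries numbered 1, 26 were lower and none higher, where 12.5% and 13% of all genes were. The count was 17 without unstarved library 1, 3 without unstarved library 3 and 4 without starved library 1. With library-size scaling the count was 4, with no filter on low counts 21 and in a fit of all 18 libraries 17. The small nucleolar RNA host genes, whose introns hold guide RNAs for ribosomal RNA modification, were lower in 6 of 18 cases with none higher (11 and 1 with the block, and 1 higher with library-size scaling). Dancr fell from 21.6, 22.6 and 28.0 to 5.27, 5.87 and 7.58 CPM (-1.96 ± 0.16, adjusted p = 2.8e-06) and Snhg5 from 71.3, 70.6 and 89.8 to 26.0, 26.2 and 28.3 CPM (-1.53 ± 0.11, adjusted p = 9e-07). The change of Snhg5 differed from that of wild-type cells (-0.54) by -1.0 ± 0.14 (adjusted p = 0.000164).

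Splicing regulators gave 8 lower and 3 higher genes of 24. Rbm10 (chrX:20617503-20650901, plus strand), an RNA-binding protein that promotes exon skipping, fell from 89.8, 88.0 and 82.9 to 31.6, 26.6 and 28.3 CPM (-1.59 ± 0.09, adjusted p = 2.76e-07). In wild-type cells it fell less (-0.45 ± 0.06), and the difference was -1.15 ± 0.11 (adjusted p = 6.04e-07). U2af1, the small subunit of the factor that reads the 3′ splice site, fell from 145, 196 and 187 to 71.1, 98.4 and 86.3 CPM (-1.05 ± 0.16, adjusted p = 0.000462). The SR protein genes Srsf4, Srsf11, Srsf5 and Srsf6 fell by 0.77, 0.76, 0.54 and 0.42. Rising members were Rbm5 (0.79), Cirbp (0.67) and the SR protein kinase gene Clk2 (0.56). Among 9 genes of mRNA decay by CCCH and Roquin proteins, 5 fell and none rose: besides Zc3h12a these included Rc3h1 (Roquin-1, -0.75), N4bp1 (-0.69) and Zfp36l1 (-0.39).

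Leucine starvation of the same cells allowed arginine to be set beside another amino acid. Both starvations were compared with the same 3 unstarved libraries, so their fold changes are not independent, whereas the direct comparison of Gcn_Leu with Gcn_Arg uses no control library. It called 760 genes higher after leucine starvation and 635 lower (4.64% and 3.88% of genes, 8.52% in all). Rbm10, which fell by 1.59 on arginine starvation, had a log2 fold change of -0.08 on leucine starvation (adjusted p = 0.588), and the direct difference was 1.51 ± 0.09 (adjusted p = 2.92e-06). U2af1 stood at -1.05 and 0.10, with a direct difference of 1.15 ± 0.16 (adjusted p = 0.00117). Of the 24 splicing genes, 9 were higher after leucine than after arginine starvation and 2 were lower.

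Castor1 fell with arginine (-0.50) and was not called with leucine (0.18, adjusted p = 0.181), a direct difference of 0.69 ± 0.09 (adjusted p = 0.000602). Insig1 rose with arginine (0.38) and fell with leucine starvation (-0.46), a difference of -0.84 ± 0.09 (adjusted p = 0.000126). Nolc1 fell with arginine (-0.58) and rose with leucine starvation (0.38), while Rrp9 fell further with leucine (-1.51) than with arginine starvation (-0.68; difference -0.83 ± 0.09, adjusted p = 0.000126). Among genes that rose, Mcoln1 (1.42 with arginine, 0.72 with leucine; difference -0.70 ± 0.09, adjusted p = 0.000467), Slc25a44 (1.72 and 0.99; -0.72 ± 0.09, adjusted p = 0.000304) and Nprl3 (0.71 and 0.03; -0.67 ± 0.11, adjusted p = 0.00211) were higher on arginine starvation. The ISR gene Trib3 (-1.77 and -1.91) and the glycine transporter gene Slc6a9 (-1.53 and -1.63) fell in both, and no direct difference was detected (-0.14 ± 0.12, adjusted p = 0.561, and -0.10 ± 0.14, adjusted p = 0.741). Ddit3 fell on arginine starvation (-0.81) and was not called on leucine starvation (0.21), and the direct difference was 1.02 ± 0.15 (adjusted p = 0.00117).

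**Figure D5:**
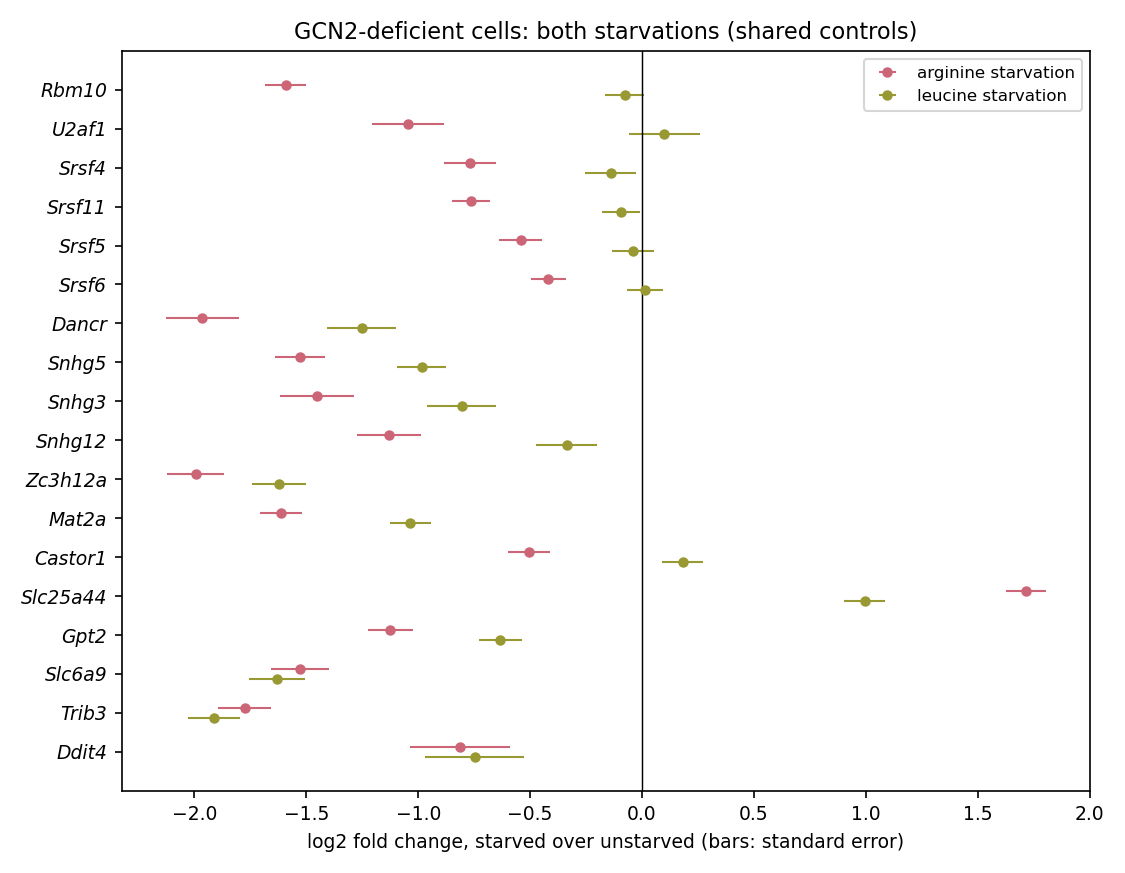
Log2 fold change (with standard error) of 18 genes of GCN2-deficient cells after arginine (red) and leucine (olive) starvation, each against the same 3 unstarved libraries. Rbm10 lies at -1.59 and -0.08 and Castor1 at -0.50 and 0.18, while Trib3 lies at -1.77 and -1.91.

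Signalling and lineage genes moved in both directions. In the Notch pathway 6 of 20 genes rose and 5 fell. The ligand gene Dll1 rose from 5.82, 7.79 and 7.91 to 31.3, 41.8 and 37.4 CPM (2.36 ± 0.15, adjusted p = 4.3e-07), and Hes1, the repressor induced by Notch, rose from 41.8, 48.6 and 47.8 to 91.7, 104 and 91.4 CPM (1.05 ± 0.09, adjusted p = 4.04e-06). Notch4, Nrarp (a feedback inhibitor) and the ligand gene Jag2 fell by 0.93, 0.56 and 0.47. With library-size scaling, or without unstarved library 2 or 3, 3 Notch genes were lower. In the FGF family 6 of 15 genes fell and 2 rose (4 higher with the block or library-size scaling). Fgf15 fell from 21.8, 24 and 21.7 to 7.52, 9.39 and 6.85 CPM (-1.50 ± 0.15, adjusted p = 1.1e-05) and Fgf4, an autocrine factor of stem cells, by 0.40, while Fgf5 (2.00, 1.99 and 1.98 rising to 3.61, 3.88 and 4.41 CPM) rose by 0.99.

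The ERK feedback genes were split as well, 3 of 13 higher and 5 lower. The phosphatase gene Dusp4 rose from 49.4, 48.3 and 47.4 to 161, 167 and 143 CPM (1.70 ± 0.10, adjusted p = 4.07e-07) and Dusp6 by 0.51. Dusp5 fell from 15.3, 13.4 and 14.3 to 6.37, 7.24 and 7.58 CPM (-1.02 ± 0.11, adjusted p = 2.33e-05) and Spry4 by 0.64. In wild-type cells Dusp5 had a log2 fold change of 0.01 ± 0.08, and the difference was -1.04 ± 0.13 (adjusted p = 3.3e-05). Of 18 immediate early genes, 7 fell and 2 rose (3 lower where at least 5 CPM was required): Ier3 (-1.30), Myc and Nr4a1 (-0.69) fell, and Dusp1 (1.04) and Jun (0.82) rose.

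Krüppel-like factors rose in 9 of 15 cases and fell in 3, with a median of 0.53 (1 lower with library-size scaling or without unstarved library 1 or 2 or starved library 2 or 3). Klf10, a TGF-beta early response gene, rose from 102, 99.5 and 95.9 to 315, 279 and 273 CPM (1.54 ± 0.09, adjusted p = 2.76e-07), followed by Klf11 (1.24), Klf6 (1.15) and Klf15 (0.93). The pluripotency factors Klf5, Klf2 and Klf4 rose by 0.67, 0.53 and 0.51, and Klf8 fell by 0.63. Clock genes gave 7 higher and none lower of 17 (2 lower with the block and 1 without starved library 2). Beside Bhlhe41 they included Bhlhe40 (20.9, 16.9 and 15.5 rising to 59.0, 46.1 and 49.5 CPM, 1.54 ± 0.14, adjusted p = 4.24e-06), Hlf (0.94), Ciart (0.93), Rora (0.83) and Nr1d2 (0.51). Ciart, a repressor of CLOCK and BMAL1, rose more in wild-type cells (2.15 ± 0.11), a difference of -1.22 ± 0.17 (adjusted p = 0.000128).

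Pluripotency factors rose in 8 of 21 cases and fell in 4. Pou5f1 (OCT4) fell from 2480, 2533 and 2505 to 1730, 2041 and 1805 CPM (-0.43 ± 0.09, adjusted p = 0.00311), and Nr5a2 and Lin28a fell by 0.64 and 0.48. Nanog was at 552, 535 and 595 CPM and at 559, 541 and 599 CPM (0.01 ± 0.08, adjusted p = 0.921). Tbx3 rose from 155, 145 and 143 to 378, 368 and 341 CPM (1.29 ± 0.09, adjusted p = 9e-07), Nr0b1 by 0.81, Sall4 by 0.69 and Esrrb by 0.42. Of 24 lineage transcription factors, 10 rose and 1 fell, with a median of 0.37 (2 lower with the block). Gata2 went from 3.65, 3.03 and 4.18 to 22.4, 20.8 and 15.5 CPM (2.44 ± 0.18, adjusted p = 9e-07). The inhibitors of differentiation Id2, Id4 and Id3 rose by 1.81, 1.22 and 0.92, Sox1 by 1.02 and Otx2 by 0.98, and Eomes fell by 1.11.

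Replication genes were higher in 9 of 28 cases and lower in 1 (15 higher with the block and with library-size scaling, and none lower with that scaling or without unstarved library 1), with E2f1 at 0.67, Gins3 at 0.61, Cdt1 at 0.49 and Mcm2 at 0.47. Mitosis and cyclin genes held 4 lower of 18 and none higher (2 lower without unstarved library 2 or starved library 1, and 1 higher with library-size scaling or without starved library 2), among them Aurkb (111, 100 and 98.0 falling to 63.5, 64.9 and 62.4 CPM, -0.69 ± 0.09, adjusted p = 5.47e-05) and Ccnd1 (-0.42). Replication-dependent histone transcripts, which mostly lack a poly(A) tail and are therefore poorly captured by a poly(A) method, made up 0.00741% to 0.00922% of counts in unstarved and 0.0120% to 0.0147% in starved libraries. Of 53 tested, 6 were higher and none lower, where 14.3% of all genes were higher, and 11 were higher without the libraries numbered 1, 14 with the block and 10 with library-size scaling. In the BCL2 family, which sets the threshold of apoptosis, 4 of 15 genes rose and 4 fell, but 1 or 2 rose when any library was left out and 2 fell with library-size scaling. Of those that kept their call, Hrk, a BH3-only activator of cell death, rose from 8.52, 8.39 and 7.53 to 16.1, 17.3 and 12.6 CPM (0.92 ± 0.13, adjusted p = 0.000161), and Bok fell by 0.72. Hrk rose more in wild-type cells (2.78), a difference of -1.87 ± 0.22 (adjusted p = 2.02e-05).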

How the data were processed

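RNA was measured in 18 libraries of E14 mouse embryonic stem cells, of which the 9 GCN2-deficient libraries entered the main fit and all 18 the comparison of genotypes. Per the labels' protocols, 1 µg of total RNA per sample went into a directional poly(A) kit and 2 × 43 bp reads were taken. The values used are the deposited whole-number counts per Ensembl gene, made by the authors with STAR 2.7.4a and HTSeq on build GRCm38, per the submitters' processing notes. Neither the release of the annotation nor HTSeq's strand mode is stated in those notes, so reads of overlapping antisense genes may not be told apart. Symbols and coordinates came from GENCODE vM21 on the same build (55144 of 55471 gene IDs matched).

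Genes were filtered with filterByExpr, scaled by TMM and tested with edgeR 4.0.16 (quasi-likelihood F test, robust, R 4.3.3), with Benjamini-Hochberg adjustment over all genes tested. The threshold for a call was an adjusted p of 0.05, and each SE was computed as |log2 fold change| / √F. The change in GCN2-deficient cells minus that in wild-type cells, and leucine minus arginine starvation, were contrasts of the same kind of fit. CPM are counts over the TMM library size. Alternatives were other scalings and filters, DESeq2 1.42.0, limma 3.58.1 (voom), other sets of libraries, a replicate block, and leaving out libraries. Same-numbered starved and unstarved libraries deviated together (r = 0.48, 0.21 and 0.19 over genes for numbers 1, 2 and 3). A block by replicate number was therefore run as an alternative, and the main tests did not use this pairing. Unstarved library 3 was also close to starved library 2 (r = 0.24). Counts were also simulated for the comparison of starved and unstarved GCN2-deficient cells, with no pairing and with 50 genes changed per fold and direction. There, 41 of 50 genes raised 2-fold and 36 of 50 lowered 2-fold were called, against 21 and 20 of 50 at 1.5-fold. Among those with a mean of at least 5 CPM, 34 of 36 and 30 of 30 were called at 2-fold. At 1.5-fold these counts were 20 of 33 and 19 of 31. False calls numbered 8, with 16116 genes tested, changed ones included.

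Named genes were the 12 largest called changes in each direction among genes with a mean of at least 5 CPM, a symbol that is no Gm or Rik model and no overlap of groups, then members of 43 gene lists, the called ones of large change first. Members and lists were chosen with earlier results of these data known. The authors' deposited size-factor-normalized values were not used. Some genes of the lists are counted but not reported here by name.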

Additional observations from a re-analysis of the deposited data

Results flagged for a closer look

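For 42 of the genes named above, the change on arginine starvation differed between GCN2-deficient and wild-type cells by the test of the difference (edgeR, change without GCN2 minus change in the wild type, log2 scale, adjusted p under 0.05). Among ISR regulators and targets the values were -5.22 for Inhbe, -4.03 for Chac1, -3.32 for Trib3, -2.87 for Ddit3, -2.82 for Stc2, -2.69 for Vldlr, -2.31 for Gdf15, -2.10 for Gpt2 and -2.08 for Vegfa. Smaller differences in that list were -1.94 for Atf3, -1.89 for Nupr1, -1.59 for Cebpb, -1.24 for Ddit4, -1.02 for Atf4 and -0.66 for Sesn2. Atf3, Nupr1 and Vldlr were not called in GCN2-deficient cells, and had log2 fold changes of 2.18, 1.97 and 2.48 in the wild type.

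Among transporters the difference was -3.36 for Slc7a11, -2.99 for Slc6a9, -1.19 for Slc7a1, -0.78 for Slc38a4 and -0.55 for the lactate carrier gene Slc16a1. The tRNA synthetase genes Eprs, Iars, Tars, Cars and Gars differed by -0.79, -0.70, -0.65, -0.60 and -0.49, and Psat1 by -0.44. In the ER list the values were -3.08 for Herpud1, -0.73 for Atf6, -0.56 for Pdia4 and -0.52 for Canx. Elsewhere they were -1.87 for Hrk, -1.22 for Ciart, -1.15 for Rbm10, -1.04 for Dusp5, -1.0 for Snhg5, -0.92 for Esam, -0.72 for Rc3h1, -0.57 for Nr1d2, -0.50 for Cln3, -0.47 for Hmox1 and -0.44 for Atp6v1a. Nrarp, at 0.70, was the one positive value among these genes.

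The calls of 8 of the 42 were lost under at least 1 alternative. For Hmox1 (adjusted p up to 0.161 without unstarved library 2), Rc3h1 (0.125 without wild-type unstarved library 1), Nr1d2 (0.105 without starved library 2) and Nrarp (0.0845 without unstarved library 2) this happened for several single libraries. Ddit4 reached 0.0528 without wild-type unstarved library 3 and Gars 0.0534 without unstarved library 2. Cln3 and Atp6v1a are given with their values above. Groups of 3 libraries are too small for a test of single outlying samples.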

How the results depend on the processing

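For 212 named genes, 3516 of the values under alternative settings kept direction and side of the threshold, 40 fell short of it, 21 newly passed it and 10 changed sign. Sign changes were confined to genes that were not called. Leaving out 1 library in turn gave -0.0127 (without unstarved library 3) to 0.0889 for Atp6v1a, -0.0551 (without starved library 1; also below 0 without unstarved library 3) to 0.223 for Eif2ak4, -0.0252 (without starved library 3; also below 0 without unstarved library 2) to 0.0601 for Nanog, -0.10 (without starved library 1) to 0.232 for Nupr1, -0.0369 (without starved library 2) to 0.308 for Tfeb and -0.552 to 0.0117 (without starved library 2) for Vldlr. Nanog was at -0.0136 with no filter on low counts and Nupr1 at -0.0734 without the libraries numbered 1. The causes were not tested. Calls lost belonged to Cars, Eprs, Gars, Ddit4, Gadd45a, Hspa1a, Manba and Man2b1.

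Against 2339 higher and 2244 lower genes on arginine starvation, the replicate block gave 3643 and 3959, the block with a GC correction 3780 and 4335, and library-size scaling 1397 lower. Leaving out 1 library gave 1659 to 2061 higher and 1553 to 1996 lower. Against 105 higher and 285 lower genes for the difference between genotypes, library-size scaling gave 298 and 162 (64.8% higher in place of 26.9%), no filter 641 lower, the filter at 5 CPM 204 higher, DESeq2 236 and 545, the block 1000 and 1505, and leaving out the libraries numbered 1 184 higher. Leaving out 1 library gave 38 to 160 and 142 to 365. Against 760 and 635 genes for leucine minus arginine, no filter gave 1163 higher and the block 2350 and 2012. Leaving out 1 library gave 357 to 612 higher and 322 to 479 lower, the lowest without starved library 3 (357) and without leucine library 2 (322). Apart from Asns, Ass1, Slc7a1 and Tfe3, given above, and Iars (adjusted p = 0.0797, and 0.000315 with the block), the replicate block changed the call of no named gene on arginine starvation.

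Counts of 14.8 M to 28.3 M per library and 3 libraries a group limit what can be seen. The median biological coefficient of variation was 0.1087. In the simulation 21 of 50 genes raised and 20 of 50 lowered 1.5-fold were called, and 20 of 33 and 19 of 31 at 5 CPM or more. Far fewer genes were changed there than were called here, so these shares do not carry over to the real comparison. Its called genes had a median absolute log2 fold change of 0.56.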
